A study of Mus musculus with 12 samples.

Results

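The nuclear genes for complexes II, III and IV of the mitochondrial respiratory chain were followed in the injured mouse heart, together with cytochrome c and the electron transfer flavoprotein (ETF) genes. The 32 genes were chosen by name and matched by symbol to the Ensembl identifiers of 2 count tables. Both tables listed the same 38293 genes, and all 32 members were found and passed the filter on low counts in both. They comprised 4 genes of complex II, 9 of complex III, the gene for cytochrome c, 15 of complex IV and 3 of the ETF pathway.

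The study asked how ischaemia followed by reperfusion (IR) changes cardiac gene expression, and what a cardiomyocyte transgene for the transcription factor ZEB2 changes after such an injury. The first table held 3 libraries of WT sham hearts and 3 libraries of WT hearts 14 days after IR. The second held 3 libraries of wild-type littermates (Zeb2 WT) and 3 of Zeb2 cTg hearts, all 14 days after IR. All mice were C57Bl/6J and, per the study's methods, between 8 and 9 weeks old, and male in the transgenic experiments. IR was produced by temporary ligation of the left anterior descending coronary artery, and sham hearts had surgery without it. Zeb2 cTg mice carry Zeb2 behind a floxed stop cassette in the Rosa26 locus, released by a Cre recombinase under the murine Myh6 promoter, so the transgene depends on cells that use this promoter. Whether the littermates carried Cre is not given in the sources used here, so effects of Cre and of the transgene cannot be told apart. Each library came from a separate animal. The records name left ventricle, the methods the remote zone, and the design text the infarct with its border zone, so the exact tissue of these libraries is unsettled.

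Complex II oxidises succinate in the citric acid cycle and passes the electrons to ubiquinone. ETF collects electrons from the breakdown of fatty acids, the main fuel of the adult heart, and its dehydrogenase brings them to the same ubiquinone pool. Complex III moves electrons from ubiquinol to cytochrome c, and complex IV moves them from cytochrome c to oxygen, each pumping or releasing protons outside the inner membrane. The catalytic core of complex IV and the cytochrome b of complex III are encoded in the mitochondrial genome, and the genes studied here supply the surrounding subunits. Several complex IV subunits exist as isoforms, of which COX6A2, COX7A1 and, in rodents, COX8B are typical of heart and skeletal muscle, whereas COX6A1, COX7A2, COX8A and COX4I1 are made in most tissues, and COX4I2 is known from lung and for its regulation by oxygen.

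Levels are normalised CPM (counts scaled to the size of the library, with trimmed-mean size factors computed within each table). Zeb2 was inspected first, as a check of the labels. It was at 54.7, 57.7 and 66.99 CPM in the Zeb2 WT IR libraries and at 55.5, 56.8 and 58.7 CPM in those labelled Zeb2 cTg IR, a log2 fold change of -0.07 ± 0.12 (SE, n = 3 and 3, adjusted p = 0.750). The transgene's Zeb2 was therefore not seen as a higher count in these libraries, so that the group is referred to by its label throughout. By qPCR and immunofluorescence, the paper reports more Zeb2 RNA and ZEB2 protein in Zeb2 cTg hearts than in littermates. Whether those were the hearts of these libraries is not given in the sources used here. Gene counts summed to 20215781 to 36816818 per library, of which 60.6% to 73.5% fell on the mitochondrial genome, so 1 CPM stood for 17.2 to 37.8 counts. Apart from Cox4i2 and Cox7c, whose lowest counts in a library were 24 and 36, every member had at least 272 counts in every library. P-values below come from edgeR's quasi-likelihood test, adjusted by Benjamini-Hochberg over all genes tested in a table, with a threshold of 0.05.

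In uninjured hearts, the muscle isoforms of complex IV were among the most abundant members per transcript length. Per kb of the longest annotated transcript, Cox6a2 led the WT sham hearts with 563 ± 65.8 CPM per kb (SD, n = 3), followed by Cox7a1 with 491 ± 31.4 and the ubiquitous Cox4i1 with 455 ± 13.9. Cox6a2 and Cox7a1 overlapped between libraries, and the lowest Cox7a1 library, at 472 CPM per kb, lay just above the highest Cox4i1 library, at 464. Cox8b followed with 367 ± 37.7 CPM per kb and Cox6b1, which bridges the monomers of complex IV, with 296 ± 16.7. The most abundant member of complex II was the iron-sulphur subunit Sdhb with 197 ± 7.84 CPM per kb. In complex III the hinge protein Uqcrh had 184 ± 2.76 and Uqcr11 177 ± 8.66 CPM per kb, with overlapping libraries, and these values leave out reads on the copies of Uqcr11 and Uqcrb, so no order is given there. Cox4i2 was at the bottom of the order with 2.64 ± 0.24 CPM per kb, beside Cox7c with 2.65 ± 0.28, whose reads are split with copies as described below. These levels depend on which transcript of a gene is used.

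After IR, 14 of the 32 members were lower in WT IR hearts than in WT sham hearts and none was higher, where 9.74% of the 13756 genes tested were called lower and 20.8% in either direction. Fold changes were below 0 for 31 of 32 members (19 of 32 when the libraries were scaled on cardiomyocyte genes), against 49.2% of all genes. The median of the members was -0.32 on the log2 scale, against 0.01 for all genes. Complex II had 1 of 4 members called lower, complex III 5 of 9, complex IV 6 of 15 and the ETF genes 2 of 3, and cytochrome c was not called. The medians were -0.29 for complex II, -0.36 for complex III, -0.22 for complex IV and -0.38 for the ETF genes. In the libraries labelled Zeb2 cTg IR, 28 of 32 members had a fold change above 0 against Zeb2 WT IR (24 of 32 when scaled on cardiomyocyte genes), compared with 50.6% of all genes. Uqcr11 alone was called, higher, where 2.14% of 13018 genes were called higher and 3.64% in either direction.

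**Figure D1:**
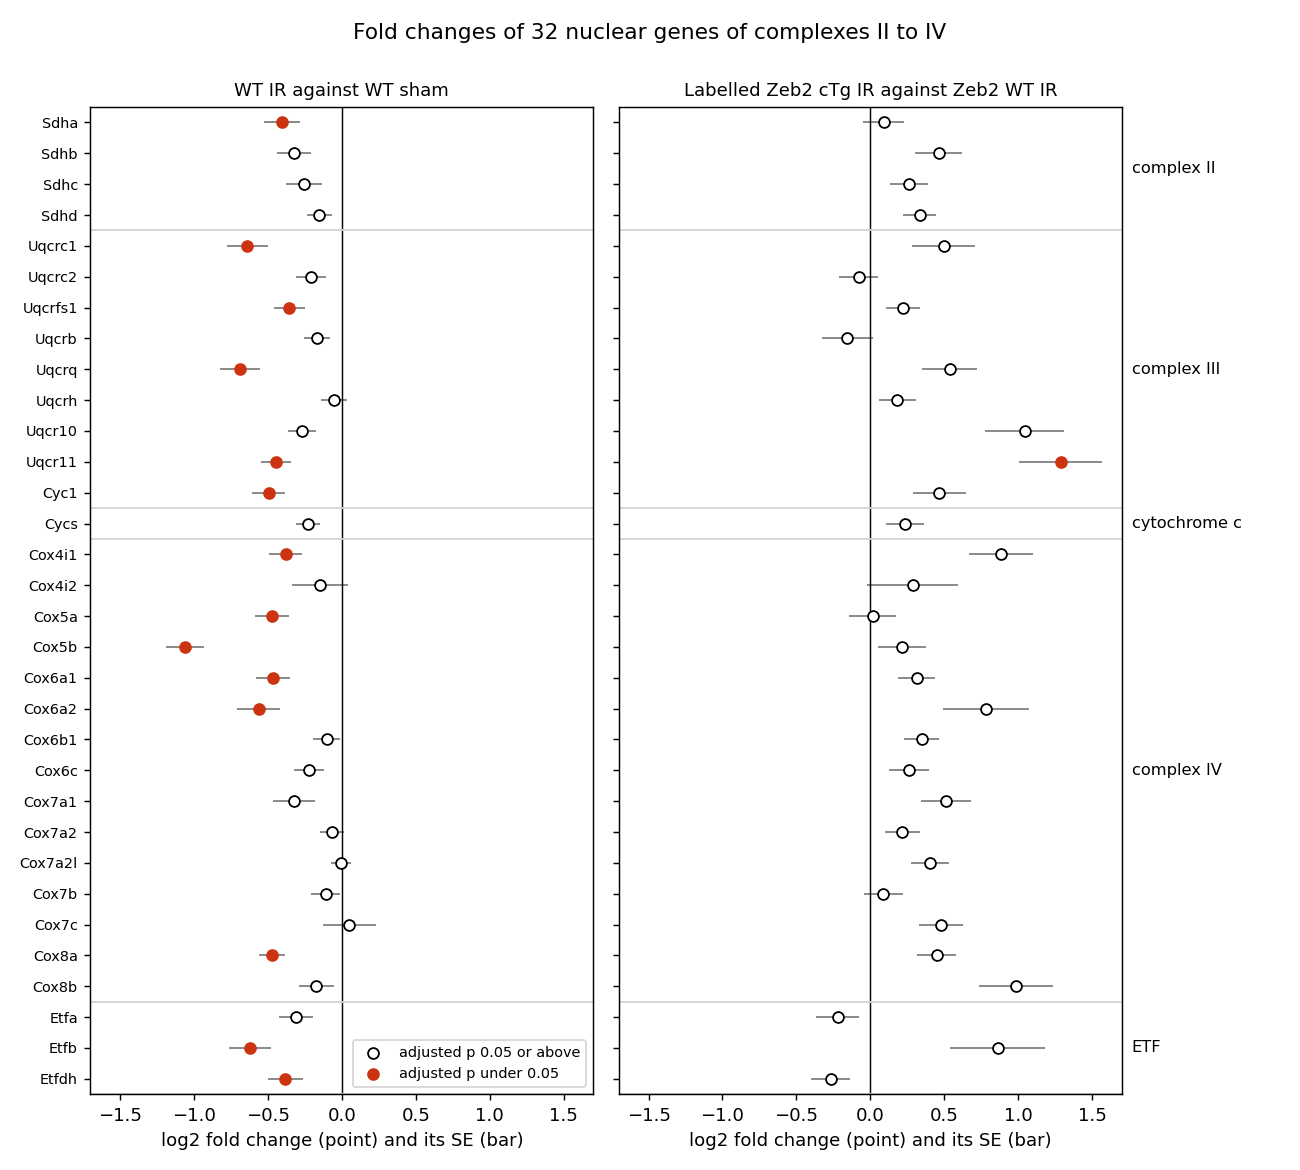
Log2 fold change (x axis, bars are the SE, n = 3 and 3) of the 32 members (y axis, by complex) in WT IR against WT sham (left) and in the libraries labelled Zeb2 cTg IR against Zeb2 WT IR (right); filled points have an adjusted p under 0.05. On the left 31 of 32 points lie below 0 (19 when scaled on cardiomyocyte genes) and 14 are filled, and on the right 28 of 32 lie above 0 (24 when so scaled) and only Uqcr11 is filled.

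Complex IV held the member with the lowest fold change of all. Cox5b encodes a zinc-binding subunit on the matrix side of complex IV and lies at chr1:36691449-36693681, forward strand (GRCm38). Its level was 75.3, 80.3 and 87.1 CPM in the WT sham libraries and 47.2, 35.7 and 33.1 CPM in the WT IR libraries. Every IR library lay well below every sham library, and the log2 fold change was -1.06 ± 0.13 (SE, n = 3 and 3, adjusted p = 0.00266). Cox5b was the only member still called when any 1 of the 6 libraries was left out. Cox5a, another subunit on the matrix side at chr9:57521274-57532426, forward strand, fell from 126, 134 and 135 to 111, 93.4 and 80.3 CPM, with a fold change of -0.47 ± 0.11 (adjusted p = 0.0203). Here too the groups did not overlap, and the first IR library was the nearest to sham.

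Among the isoforms, Cox8a, Cox6a1 and Cox4i1 of the ubiquitous kind and Cox6a2 of the muscle kind were lower. Cox8a, the ubiquitous form of a small membrane subunit (chr19:7215153-7217616, reverse strand), was at 28.8, 29.97 and 24.9 CPM in WT sham and at 20.5, 19.2 and 20.7 CPM in WT IR hearts, with little spread among the injured libraries. Its log2 fold change was -0.47 ± 0.09 (adjusted p = 0.00848), and it was called in 5 of the 6 fits that left out a library. The muscle form Cox8b (chr7:140898945-140900446, reverse strand) was at 121, 128 and 148 CPM and 135, 114 and 103 CPM, so that the first IR library lay inside the sham range, and its fold change of -0.17 ± 0.12 did not pass (adjusted p = 0.316). For the pair of COX6A genes both forms were lower. Cox6a1 (chr5:115345642-115348981, reverse strand) was at 17.4, 19.8 and 15.9 CPM in sham and 13.8, 11.2 and 13.8 CPM in IR hearts, and Cox6a2 (chr7:128205435-128206387, reverse strand) at 339, 382 and 428 and 318, 232 and 228 CPM. In both genes all IR libraries lay below all sham libraries, with fold changes of -0.46 ± 0.11 (adjusted p = 0.0210) and -0.56 ± 0.15 (adjusted p = 0.0257).

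Cox4i1, the regulatory subunit that binds adenine nucleotides (chr8:120668222-120674207, forward strand), was at 355, 354 and 336 CPM in WT sham and 313, 248 and 243 CPM in WT IR hearts. The groups did not overlap and the fold change was -0.38 ± 0.11 (adjusted p = 0.0411). Its counterpart Cox4i2 (chr2:152754173-152765037, forward strand) and Cox7c were the scarcest members. Cox4i2 was at 1.74, 2.08 and 1.98 CPM in sham and 2.00, 1.80 and 1.42 CPM in IR hearts. Its groups overlapped, with a fold change of -0.15 ± 0.19 (adjusted p = 0.608). Cox7a1 (chr7:30184144-30186078, forward strand) was at 229.5, 229 and 256 CPM and 235, 182 and 155 CPM, and Cox7a2 (chr9:79755361-79759878, reverse strand) at 87.8, 94.7 and 88.5 CPM and 93.1, 83.8 and 82.1 CPM. Sham and IR libraries overlapped in both, and the fold changes were -0.32 ± 0.14 (adjusted p = 0.134) and -0.07 ± 0.08 (adjusted p = 0.601). The remaining complex IV members, Cox6b1, Cox6c, Cox7b, Cox7c and Cox7a2l, had fold changes from -0.22 for Cox6c to 0.05 for Cox7c, and none passed. Cox7a2l, which links complexes III and IV in supercomplexes, had a fold change of -0.01 ± 0.07.

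In complex III 5 of 9 members were lower. Uqcrq, a small subunit next to cytochrome b, was at 67.6, 70.3 and 75.6 CPM in WT sham and 55.4, 38.8 and 38.1 CPM in WT IR hearts. All injured libraries lay below all sham libraries, and the log2 fold change was -0.69 ± 0.14 (adjusted p = 0.0109). The core protein gene Uqcrc1 was at 327, 329 and 296 CPM and 255, 181 and 176 CPM, again without overlap, with a fold change of -0.64 ± 0.14 (adjusted p = 0.0152). The other core protein gene, Uqcrc2, had a fold change of -0.21 ± 0.10 and was not called (adjusted p = 0.175). Cyc1, the haem subunit that docks cytochrome c, was at 169, 184 and 173 CPM and 146, 119.6 and 108 CPM, with a fold change of -0.49 ± 0.11 (adjusted p = 0.0167). Uqcrfs1, the Rieske iron-sulphur protein, was at 199, 209.9 and 209.5 CPM and 186, 154 and 144 CPM, with a fold change of -0.36 ± 0.11 (adjusted p = 0.0414). In both genes the groups were apart, and the first IR library was the one nearest to sham.

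Uqcr11, a small supernumerary subunit of complex III (chr10:80402997-80406830, reverse strand), was at 102, 108 and 112 CPM in WT sham and at 90.7, 72.7 and 72.97 CPM in WT IR hearts. The injured hearts lay below all sham hearts, and the fold change was -0.44 ± 0.10 (adjusted p = 0.0168). Uqcr10, Uqcrb and Uqcrh had fold changes of -0.27, -0.17 and -0.05, and none passed.

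The sequence before the start site of Uqcr11 is shown because this gene was called in both comparisons, that of Cox5b because its fold change was the lowest, and those of Cox8a and Cox8b to set an isoform pair side by side. Each line runs from 250 bases before to 50 bases after the start in RefSeq's annotation of GRCm38, in 5′ to 3′ direction of the gene, from chr10:80406772-80407071 (reverse strand), chr1:36691237-36691536 (forward strand), chr19:7217567-7217866 (reverse strand) and chr7:140900397-140900696 (reverse strand). Capitals mark matches to the letters searched for nuclear respiratory factor NRF1 (GCGCATG) and for ETS factors such as GABPA (CCGGAAG) on either strand.
Uqcr11: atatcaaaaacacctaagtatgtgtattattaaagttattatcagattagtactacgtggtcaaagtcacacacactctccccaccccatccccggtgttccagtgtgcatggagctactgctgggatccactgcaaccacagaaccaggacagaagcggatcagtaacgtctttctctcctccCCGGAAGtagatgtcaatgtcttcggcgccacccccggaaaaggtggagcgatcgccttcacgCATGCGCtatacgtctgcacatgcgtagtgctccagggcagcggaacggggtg
Cox5b: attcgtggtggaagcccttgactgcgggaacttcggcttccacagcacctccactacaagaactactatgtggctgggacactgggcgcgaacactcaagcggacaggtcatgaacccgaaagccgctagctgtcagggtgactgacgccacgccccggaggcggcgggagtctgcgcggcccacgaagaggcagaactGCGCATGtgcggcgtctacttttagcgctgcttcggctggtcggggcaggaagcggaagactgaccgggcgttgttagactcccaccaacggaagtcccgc
Cox8a: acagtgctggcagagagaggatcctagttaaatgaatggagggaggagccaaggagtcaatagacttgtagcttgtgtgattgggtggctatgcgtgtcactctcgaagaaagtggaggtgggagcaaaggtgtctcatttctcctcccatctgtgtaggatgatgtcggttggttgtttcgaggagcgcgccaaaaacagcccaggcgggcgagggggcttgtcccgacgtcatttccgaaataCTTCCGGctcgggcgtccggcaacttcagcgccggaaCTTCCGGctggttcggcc
Cox8b: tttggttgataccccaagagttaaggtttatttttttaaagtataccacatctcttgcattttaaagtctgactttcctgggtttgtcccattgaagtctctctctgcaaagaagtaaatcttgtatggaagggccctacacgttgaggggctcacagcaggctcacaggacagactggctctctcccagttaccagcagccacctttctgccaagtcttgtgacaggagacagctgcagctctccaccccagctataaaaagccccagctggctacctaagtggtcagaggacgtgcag

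RefSeq gave a start sequence for 23 of the 32 members. NRF1 letters were found in 8 of these 23 (34.8%), against 4.04% of the 27025 genes with such a sequence, and ETS letters in 7 of 23 (30.4%), against 9.12%. Uqcr11, Cox6a1 and Sdhb held both, Cox5b held NRF1 letters, Cox8a held the ETS letters at 2 places, and Cox8b, Cox7a1 and Cox7a2 held neither. Letters for ERR receptors (AAGGTCA) were in 1 of 23 and those for YY1 (AAGATGG) in 1 of 23, against 4.66% and 6.48% of all genes. Letters of ZEB factors (CACCTG) were in 3 of 23, namely Cox6b1, Sdhb and Uqcrc1, or 13.04% against 20.03% of all genes, and Uqcr11 had none. Both strands were searched, and the palindrome GCGCATGCGC holds overlapping NRF1 matches on both strands.

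In complex II the flavoprotein subunit Sdha, which holds the succinate site, was at 376, 387 and 347 CPM in WT sham and 326, 274 and 237 CPM in WT IR hearts. The groups did not overlap, and the fold change of -0.41 ± 0.12 passed (adjusted p = 0.0434). The iron-sulphur subunit Sdhb had a similar value of -0.32 ± 0.11 that missed the threshold (adjusted p = 0.0731), and the membrane anchors Sdhc and Sdhd had -0.26 and -0.15. The electron carrier cytochrome c, Cycs, was at 21.1, 21.5 and 22.05 CPM in sham and 18.8, 19.5 and 16.8 CPM in IR hearts. Its groups did not overlap, but the fold change of -0.23 ± 0.08 did not pass (adjusted p = 0.0736).

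The ETF genes had the lowest median of the groups described. Etfb, one of the subunits of the ETF dimer, was at 109, 113 and 106 CPM in WT sham and 88.9, 67.9 and 56.01 CPM in WT IR hearts, a fold change of -0.62 ± 0.14 (adjusted p = 0.0180) with no overlap between the groups. Etfdh, which hands the electrons of ETF to ubiquinone, passed with -0.38 ± 0.12 (adjusted p = 0.0465), and Etfa, the partner of Etfb, missed the threshold with -0.31 ± 0.11 (adjusted p = 0.0796). Over all 32 members, 19 had every IR library below every sham library, against 19.3% of all genes, and none had the opposite order, which 20.5% of all genes had.

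**Figure D2:**
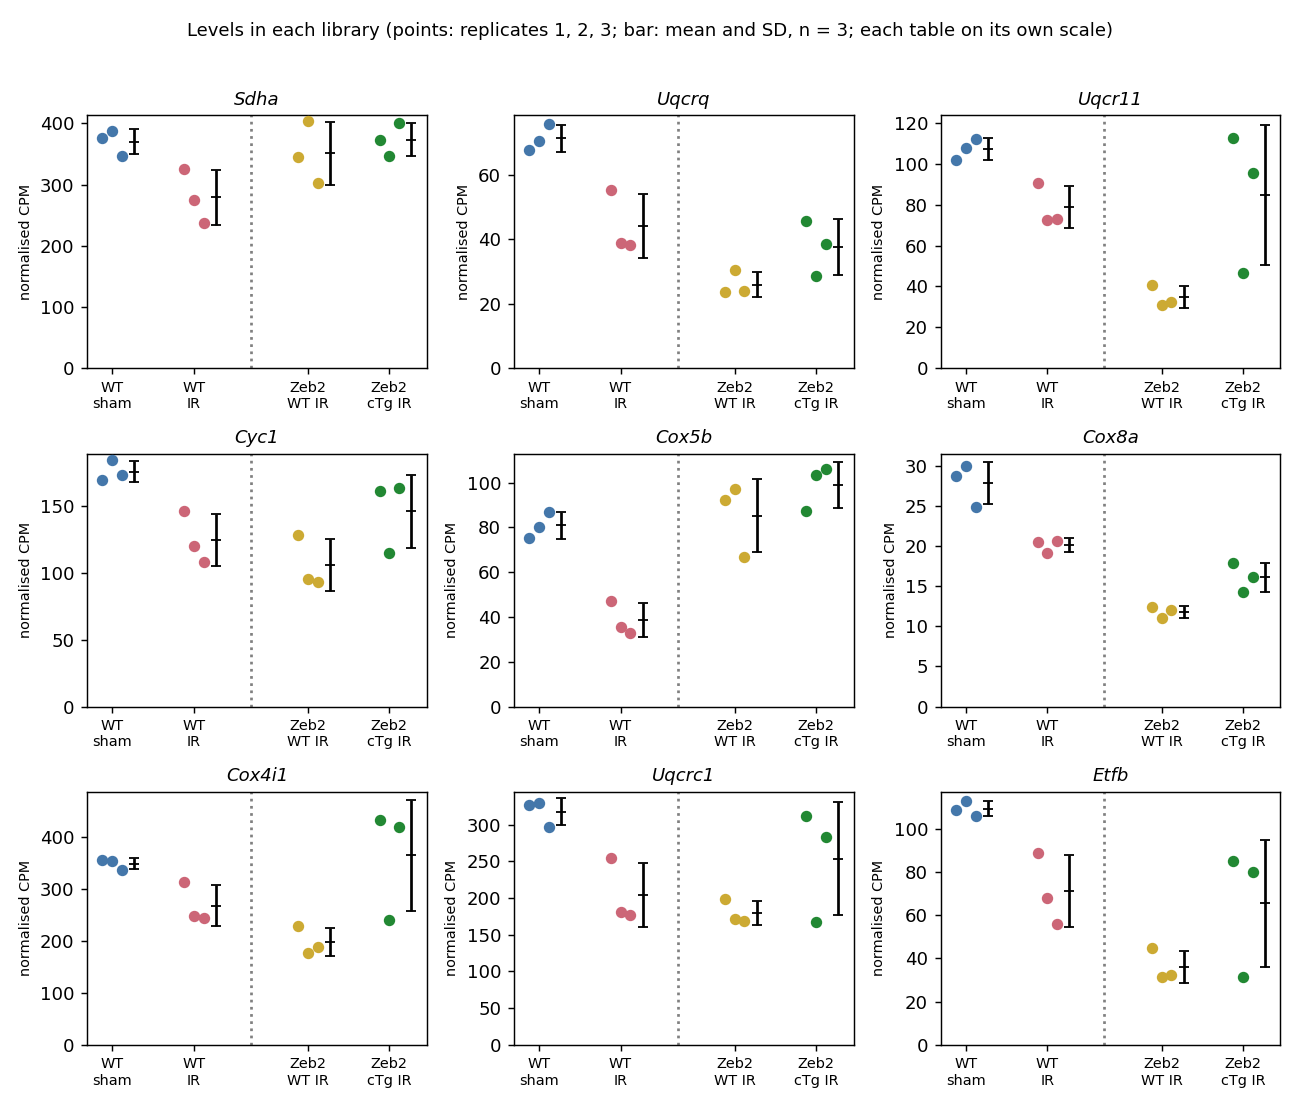
Normalised CPM (y axis, from 0) of 9 members in the 12 libraries, with points for replicates 1, 2 and 3 of each group and a bar for mean and SD (n = 3); the dotted line separates the 2 tables, which were normalised separately. All WT IR points lie below all WT sham points in these 9 genes, and the second library labelled Zeb2 cTg IR lies low in Uqcr11, Cox4i1 and Etfb.

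The injured hearts differed among themselves. Against the mean of the sham hearts, the median of the 32 members was -0.10 in the first WT IR library, -0.37 in the second and -0.46 in the third, while the sham libraries lay between -0.05 and 0.03. The first library had the highest value of the 3 injured hearts in 30 of 32 members, and the third had the lowest in 26. Without the first WT IR library 24 members were lower, where 17.6% of all genes were lower, and the median was -0.45. Leaving out another library reduced the count, and the share of all genes called lower also fell from 9.74%. Without WT IR replicate 3 the count was 9 (6.09% of all genes lower), and without WT IR replicate 2 it was 2 (2.55%). It was 6 without WT sham replicate 1 (3.87%), 1 without WT sham replicate 2 (1.41%) and 5 without WT sham replicate 3 (5.11%). The medians of the members lay between -0.22 and -0.34.

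**Figure D3:**
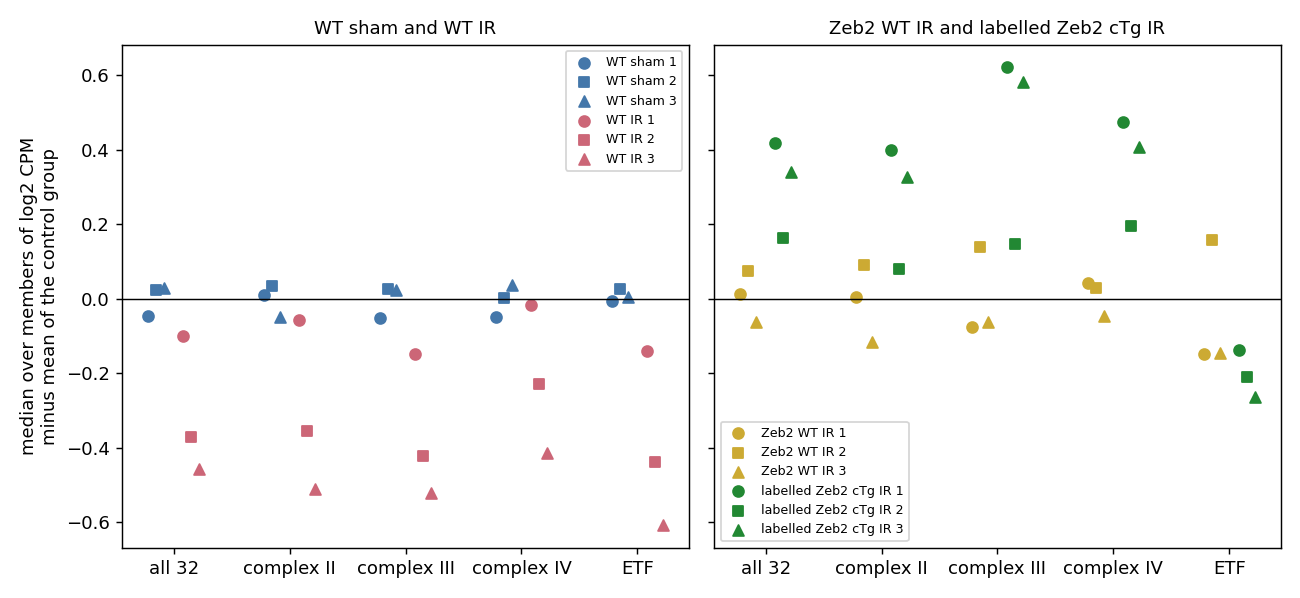
Median over members of log2 CPM minus the mean of the control group (y axis) in each library (points, with shape for the replicate), for all 32 members and by complex, in the WT table (left) and the Zeb2 table (right). The first WT IR library lies at -0.10 for all members, nearer to sham than the others, and the second library labelled Zeb2 cTg IR lies at 0.16, below the others of its group.

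Markers of some other cell types differed after IR as well. Of 10 fibroblast markers 9 were higher after IR, with a median of 2.01, and their summed level lay between 536 and 985 CPM in sham libraries and between 1941 and 4887 CPM in IR libraries. Of 10 macrophage markers 8 were higher, with sums of 159 to 177 and 232 to 441 CPM. None of 8 endothelial markers was called, with a median of -0.09. Of 6 smooth muscle and pericyte markers 2 were higher and 1 lower. Of 20 cardiomyocyte sarcomere genes 4 were lower and none higher, against 9.74% of all genes lower. Their median was -0.22, with sums of 61558 to 68114 CPM in sham and 48589 to 61871 CPM in IR hearts. In such bulk samples fewer cardiomyocytes and less RNA per cardiomyocyte cannot be told apart, and the part of other cells in the members' fold changes was not tested. When the libraries were scaled on cardiomyocyte genes, the median of all genes was 0.28 and that of the members -0.07, with 19 of 32 members below 0. Complex IV then had a median of 0.03 and the other groups but cytochrome c stayed below 0, at -0.04 for complex II, -0.10 for complex III and -0.13 for the ETF genes. A change of scaling shifts all genes by about the same amount, so the difference between members and all genes could hardly change. It was -0.32 with the usual scaling and -0.34 with this one. Uqcrc1, Uqcrq, Cox5b and Etfb were still called lower, where 1.79% of all genes were.

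Base composition also moved with the fold changes. Over all genes the Spearman correlation of fold change with the GC content of the longest transcript was -0.29 in the WT table and 0.55 in the Zeb2 table, and over the 32 members, whose GC content ranged from 38.4% for Cox7c to 62.7% for Cox6a1, it was -0.39 and 0.71. These are descriptions over genes that share libraries. After a correction for GC content the IR comparison had 12 members lower, 10 of them the same, where 7.55% of all genes were lower. The median of the members was -0.26. The calls for Uqcr11, Cyc1, Cox4i1 and Cox6a1, whose GC content was 58.0% to 62.7%, ended, with corrected fold changes of -0.18, -0.17, -0.18 and -0.08, while Uqcrb and Cycs were gained at -0.30 and -0.35.

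Ischaemic hearts labelled Zeb2 cTg had higher Uqcr11 than their Zeb2 WT counterparts. It was at 40.8, 31.2 and 32.4 CPM in Zeb2 WT IR and at 112, 46.6 and 95.5 CPM in the libraries labelled Zeb2 cTg IR. All labelled cTg libraries lay above all Zeb2 WT libraries, but the second was far below the others. The log2 fold change was 1.29 ± 0.28 (SE, n = 3 and 3, adjusted p = 0.0399), and 0.72 after the GC correction (adjusted p = 0.0275). The call ended with limma-voom (adjusted p = 0.0615). Of all genes tested 1.51% were lower, and no member was. At an unadjusted p under 0.05 there were 17 of 32 members, against 24.1% of all genes, and 13 members had groups that did not overlap, all of them higher in the labelled cTg libraries, where 13.4% of all genes did so. The median of the members was 0.32, against 0.01 for all genes.

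The members next to the threshold belonged to complexes III and IV. Cox4i1 was at 228, 177 and 187 CPM in Zeb2 WT IR and 432, 241 and 420.0 CPM in the libraries labelled Zeb2 cTg IR, with a fold change of 0.88 ± 0.22 (adjusted p = 0.0564). Cox8b was at 56.4, 41.7 and 46.8 CPM and 121, 57.5 and 108 CPM, with a fold change of 0.98 ± 0.25 (adjusted p = 0.0615). In both genes the second labelled cTg library was only just above the highest Zeb2 WT library. The small complex III subunit Uqcr10 had a fold change of 1.04 ± 0.27 (adjusted p = 0.0615), and none of these 3 genes passed. With the GC correction Cox4i1 and Cox8b passed at smaller fold changes of 0.42 (adjusted p = 0.0387) and 0.63 (adjusted p = 0.0435), and Uqcr10 did not pass at 0.80 (adjusted p = 0.0554). Cox4i1 and Cox8b are on the study's list of qPCR primers. The paper reports that qPCR in a larger set of samples bore out the top upregulated genes of its sequencing. Its text does not name those genes, so whether Cox4i1 and Cox8b are among them is not given in the sources used here.

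In complex II the smallest p-value belonged to the anchor Sdhd, at 143, 159.8 and 145 CPM in Zeb2 WT IR and 197, 179 and 189 CPM in the labelled cTg libraries. Its groups did not overlap, but the fold change of 0.33 ± 0.11 did not pass (adjusted p = 0.118). Sdha was at 346, 405 and 303 CPM and 373, 347 and 401 CPM, with 0.09 ± 0.14 (adjusted p = 0.716), and the groups overlapped. Sdhb and Sdhc had 0.46 and 0.26. Cycs was at 56.01, 70.8 and 61.9 CPM and 75.1, 78.4 and 68.3 CPM, with overlap between the groups and a fold change of 0.23 ± 0.13 (adjusted p = 0.289).

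Within complex III the fold changes were spread widely. Uqcrq was at 23.7, 30.3 and 23.8 CPM in Zeb2 WT IR and 45.7, 28.5 and 38.6 CPM in the labelled cTg libraries (0.54 ± 0.18, adjusted p = 0.124). Uqcrc1 was at 199, 172 and 169 CPM and 311, 167 and 283 CPM (0.50 ± 0.21, adjusted p = 0.192). In both, the second labelled cTg library was not above the highest Zeb2 WT library, whereas the others were. Cyc1 was at 128, 95.4 and 93.1 CPM and 161, 115 and 163 CPM (0.47 ± 0.18, adjusted p = 0.156), and Uqcrfs1 at 204, 237 and 206 CPM and 258, 252 and 244 CPM (0.22 ± 0.12, adjusted p = 0.275). Uqcrh had 0.18, while Uqcrc2 and Uqcrb lay below 0 with -0.08 and -0.15.

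All 15 members of complex IV lay above 0, from 0.02 for Cox5a to 0.98 for Cox8b, with a median of 0.35, and none passed. Cox5b, the gene lowest after IR, was at 92.1, 97.1 and 66.6 CPM in Zeb2 WT IR and 87.4, 104 and 106 CPM in the labelled cTg libraries, with overlapping groups and a fold change of 0.22 ± 0.16 (adjusted p = 0.427). Cox5a was at 151, 204 and 147 CPM and 162, 193 and 154 CPM, with 0.02 ± 0.16 (adjusted p = 0.961). Neither subunit of the COX5 group differed beyond the spread between hearts. Cox6a1 was at 10.3, 11.3 and 10.8 CPM and 14.1, 12.5 and 13.7 CPM (0.31 ± 0.12, adjusted p = 0.166), and Cox6a2 at 126, 87.8 and 90.4 CPM and 234, 95.8 and 193 CPM (0.78 ± 0.29, adjusted p = 0.145). Cox8a was at 12.4, 11.001 and 11.99 CPM and 17.9, 14.3 and 16.1 CPM (0.45 ± 0.13, adjusted p = 0.0898). The groups were apart for Cox6a1 and Cox8a, and overlapped for Cox6a2. With the GC correction the fold changes of Cox8a and Cox6a1 were 0.0030 (adjusted p = 0.992) and -0.32 (adjusted p = 0.484).

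Cox7a1 was at 156, 128 and 135 CPM in Zeb2 WT IR and 237, 153 and 206 CPM in the labelled cTg libraries (0.51 ± 0.17, adjusted p = 0.116), and Cox7a2 at 103, 105 and 99.5 CPM and 133, 112 and 112 CPM (0.22 ± 0.12, adjusted p = 0.285). Cox4i2 was at 1.32, 1.13 and 1.40 CPM and 1.93, 0.916 and 1.85 CPM, with 0.29 ± 0.31 (adjusted p = 0.592). The labelled cTg values of Cox4i2 lay on both sides of the Zeb2 WT values. Cox6b1, Cox6c, Cox7a2l, Cox7b and Cox7c had fold changes between 0.09 and 0.48. In the ETF pathway Etfb was at 44.7, 31.3 and 32.1 CPM in Zeb2 WT IR and 84.98, 31.5 and 79.8 CPM in the labelled cTg libraries (0.86 ± 0.32, adjusted p = 0.149), with the second labelled cTg library inside the Zeb2 WT range. Its partner Etfa and the dehydrogenase Etfdh lay below 0, at -0.22 ± 0.15 and -0.27 ± 0.13, and neither passed.

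The second library labelled Zeb2 cTg IR stood apart from the others of its group. It held the lowest value of that group in 21 of 32 members, and its median against the Zeb2 WT mean was 0.16, against 0.42 and 0.34 in the others. Without it 14 members were called higher and the median was 0.36, while 11.97% of all genes were then called higher. Leaving out any other library of this table left no member called, where 0.38% to 1.42% of all genes were called higher. The medians of the members then lay between 0.29 and 0.35. Fibroblast markers were lower in the labelled cTg libraries, 3 of 10 by the test, against 1.51% of all genes lower. Their sums were 928 to 2125 CPM in Zeb2 WT IR and 543 to 672 CPM in the labelled cTg libraries. Cardiomyocyte sarcomere genes summed to 59969 to 63318 and 68474 to 72722 CPM, and 2 of 20 were higher, against 2.14% of all genes. None of 10 macrophage and 8 endothelial markers was called, and 1 of 6 smooth muscle and pericyte markers was higher. The part of these cells in the members' fold changes was not tested. Scaled on cardiomyocyte genes, the median of all genes was -0.20 and that of the members 0.12, with 24 of 32 above 0, Uqcr11 called higher and Etfdh lower.

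The isoform pairs were then compared as log2 ratios of counts within each library, where scaling between libraries drops out. With 3 against 3 libraries an exact permutation test, two-sided, cannot go below p = 0.1. The Cox6a2/Cox6a1 ratio was 4.29, 4.27 and 4.75 in WT sham and 4.53, 4.37 and 4.05 in WT IR hearts. These ranges overlapped, and the difference was -0.12 ± 0.21 (SE, exact p = 0.7). The Cox7a1/Cox7a2 ratio was 1.39, 1.27 and 1.53 in sham and 1.33, 1.12 and 0.91 in IR hearts, a difference of -0.28 ± 0.14 (exact p = 0.2). The Cox8b/Cox8a ratio was 2.08, 2.09 and 2.57 in sham and 2.72, 2.57 and 2.32 in IR hearts, a difference of 0.29 ± 0.20 (exact p = 0.2). None of these pairs separated the groups, and the signs differed between pairs. The Cox4i2/Cox4i1 ratio differed by 0.22 ± 0.13 (exact p = 0.3), and after adjustment over the 4 pairs no p was below 0.4.

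In the Zeb2 table the mean ratio of the muscle form to the ubiquitous form was higher in the labelled cTg libraries in 3 pairs, but in each the second labelled cTg library did not exceed the highest Zeb2 WT library. The Cox6a2/Cox6a1 ratio was 3.61, 2.95 and 3.06 in Zeb2 WT IR and 4.05, 2.94 and 3.82 in the labelled cTg libraries, a difference of 0.39 ± 0.40 (SE, exact p = 0.4). The Cox7a1/Cox7a2 ratio differed by 0.28 ± 0.17 (exact p = 0.2) and the Cox8b/Cox8a ratio by 0.48 ± 0.26 (exact p = 0.2). The Cox4i2/Cox4i1 ratio was -7.41, -7.27 and -7.05 in Zeb2 WT IR and -7.79, -8.01 and -7.81 in the labelled cTg libraries. Here alone the groups did not overlap, with a difference of -0.63 ± 0.13 and the smallest exact p the design allows, 0.1 (0.267 adjusted over the 4 pairs). It rests on few counts of Cox4i2.

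**Figure D4:**
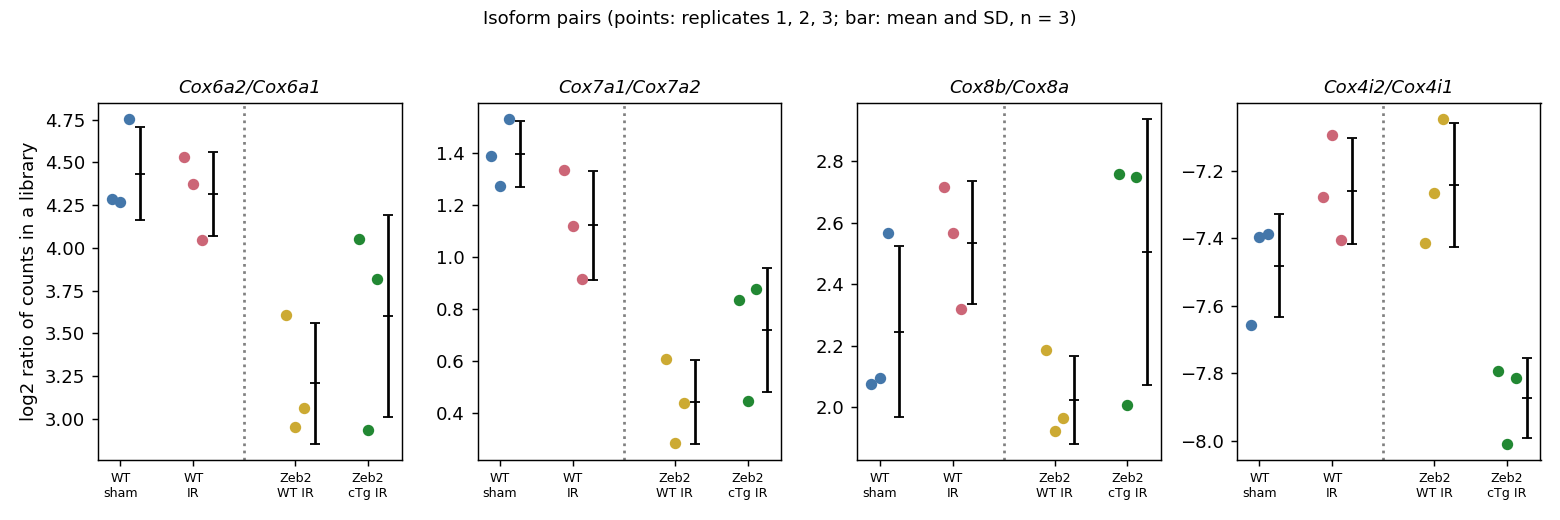
Log2 ratio of counts of the isoform pairs (y axis, a separate range in each panel) in each of the 12 libraries, with points for replicates 1, 2 and 3 and a bar for mean and SD (n = 3). Sham and IR overlap in every pair, and the groups of the Zeb2 table are apart only for Cox4i2/Cox4i1, with a difference of -0.63.

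Per kb of transcript the muscle forms made up most of each pair. Cox6a2 was 95.1% ± 0.84 (SD, n = 3) of the COX6A pair in WT sham, 94.7% ± 0.87 in WT IR, 89.3% ± 2.21 in Zeb2 WT IR and 91.4% ± 3.404 in the labelled cTg libraries. Cox7a1 was 78.1% ± 1.51, 74.7% ± 2.75, 64.8% ± 2.53 and 69.0% ± 3.57 of its pair in the same order. Cox8b was 87.8% ± 1.97, 89.8% ± 1.28, 86.1% ± 1.15 and 89.4% ± 2.98, and Cox4i2 never exceeded 0.77% of its pair. For COX6A and COX7A, and narrowly for COX8, the mean shares of injured wild-type hearts differed more between tables than between groups of a table. This is given side by side only, since mice, preparation and processing of the tables cannot be told apart.

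The tables also differed in how reads were shared between members and near-identical copies elsewhere in the genome, and 7 members have such copies. For Cox7c, a small complex IV subunit at chr13:86044816-86046904, reverse strand, 36 to 72 reads per library were counted on the gene in the WT table and 417 to 779 on the pseudogenes Gm12338 and Gm10012, or 90.7% to 93.1% of their sum. In the Zeb2 table the gene had 772 to 1597 reads and the copies 1 to 4. Cox7c thus appeared 16.0-fold higher in Zeb2 WT IR than in WT IR hearts, and 1.46-fold with the copies added. For Uqcrb, which binds ubiquinone at complex III, the copies held 37.2% to 42.6% of the sum in the WT table and 1.14% to 1.57% in the Zeb2 table. For Uqcr11 the pseudogene Gm16418 held 8.63% to 11.2% and at most 0.088%. With copies added, Cox7c after IR had a fold change of -0.27 in place of 0.05, all 32 members lay below 0, 15 were called lower with Cycs as the addition, and Uqcr11 was called in both comparisons as before.

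**Figure D5:**
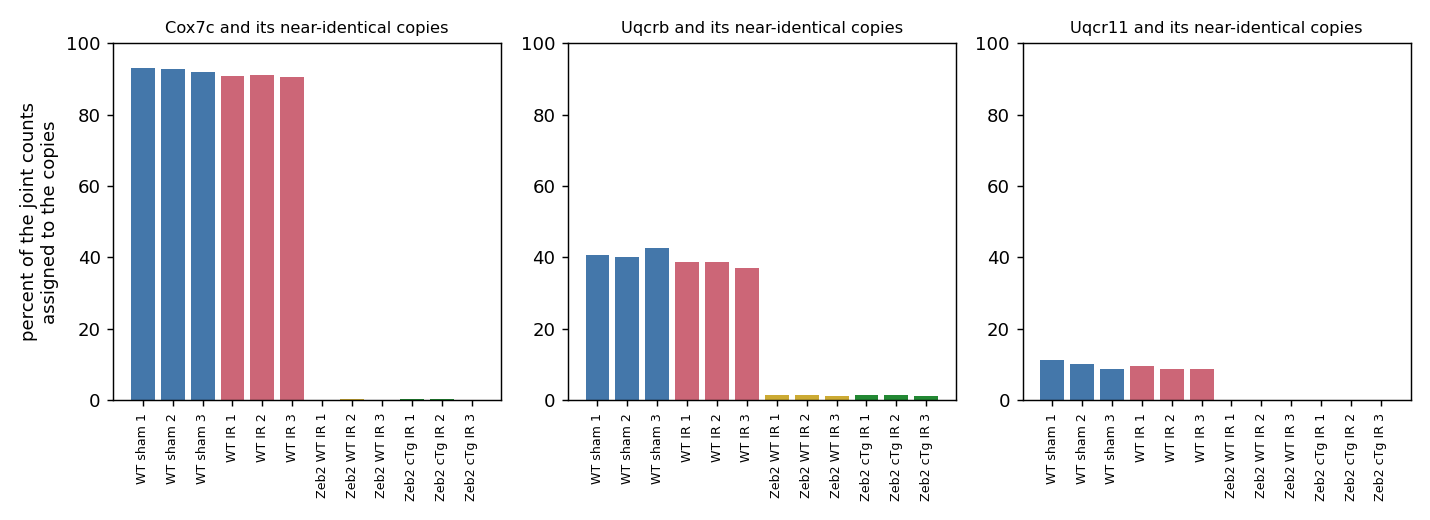
Percent of the joint counts of a gene and its near-identical copies that were assigned to the copies (y axis, 0 to 100) in each of the 12 libraries, for Cox7c, Uqcrb and Uqcr11. In the WT table the copies of Cox7c hold at least 90.7% of the joint counts in every library, and in the Zeb2 table at most 0.34%.

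Members also stood at different levels in the 2 sets of injured wild-type hearts. Cox6a2 and Cox8b, which have no near-identical copy, had means of 259 and 117 CPM in WT IR and of 101 and 48.3 CPM in Zeb2 WT IR. With the counts of their copies added, Uqcr11 had 86.6 CPM in WT IR and 34.8 CPM in Zeb2 WT IR, Cox5b 38.7 and 85.3 CPM, and Cycs 19.9 and 62.99 CPM. With the copies added, 5 of 32 members differed more than 2-fold between these groups. The share of all genes that did so was not computed. Across the 32 members the log2 ratio of the groups had a Spearman correlation of -0.82 with GC content, as a description. In side-by-side values with the usual scaling, 27 members lay below 0 after IR and above 0 in the labelled cTg libraries. Uqcrc2, Uqcrb, Etfa and Etfdh lay below 0 in both, and Cox7c lay above 0 in both. Of all genes, 49.2% lay below 0 after IR and 50.6% above 0 in the labelled cTg libraries. The share of all genes with both signs was not computed. Scaled on cardiomyocyte genes, 19 members lay below 0 after IR and 24 above 0 in the labelled cTg libraries. The comparisons share no library, and Uqcr11 was the only member called in both.

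Other genes of the chain were lower after IR as well. Of 36 nuclear complex I genes 15 were lower and none higher, against 9.74% of all genes lower. All 36 lay below 0, and the median was -0.31. When scaled on cardiomyocyte genes 3 were lower, against 1.79% of all genes, and 23 lay below 0. With 1 library left out, between 1 and 35 were lower. The 1 was without the second sham library (1.41% of all genes) and the 35 without the first WT IR library (17.6%). The smallest p-values belonged to Ndufs3 (-0.87 ± 0.13, adjusted p = 0.00431), Ndufs7 (-0.75 ± 0.14, adjusted p = 0.00934) and Ndufb8 (-0.48 ± 0.11, adjusted p = 0.0155), all subunits of the NADH dehydrogenase. Of 14 ATP synthase genes tested 2 were lower (1 when scaled on cardiomyocyte genes, with 7 of 14 below 0), against 9.74% of all genes. These were Atp5d (-0.64 ± 0.11) of the rotor stalk and Atp5g3 (-0.38 ± 0.11) of the membrane ring. In the labelled cTg libraries Ndufa1 was the only complex I gene called, higher at 0.70 ± 0.11 (adjusted p = 0.0139), where 2.14% of all genes were higher. Of the 36 genes 31 lay above 0 (24 when so scaled), with a median of 0.32. After the GC correction 10 were called higher, against 3.33% of all genes. None of 15 ATP synthase genes passed.

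Some factors that build complex IV were called in each comparison, and some that build complex III only after IR. Of 28 complex IV assembly genes 7 were lower after IR (none when scaled on cardiomyocyte genes), against 9.74% of all genes. They were led by Coa6, which helps deliver copper (-0.79 ± 0.15, adjusted p = 0.00920), Higd1a (-0.43 ± 0.09, adjusted p = 0.0147) and Cox10, an enzyme of haem synthesis for complex IV (-0.49 ± 0.12, adjusted p = 0.0235). In the labelled cTg libraries 3 of 28 were higher (1 when so scaled), against 2.14% of all genes. These were Cox19 (0.87 ± 0.13, adjusted p = 0.0116), Higd2a (0.74 ± 0.14, adjusted p = 0.0271) and Cmc2 (0.59 ± 0.13, adjusted p = 0.0380). Of 6 complex III assembly genes 2 were lower after IR (none when so scaled), against 9.74% of all genes. These were Bcs1l, which inserts the Rieske protein (-0.60 ± 0.12, adjusted p = 0.0108), and Ttc19 (-0.30 ± 0.08, adjusted p = 0.0315). None of 4 complex II assembly genes was called in either comparison. None of 15 transcriptional regulators was called in the labelled cTg libraries. After IR 5 of the 15 were lower, against 9.74% of all genes (1 when scaled on cardiomyocyte genes, against 1.79%). Among them were Esrra, an orphan receptor that drives respiratory genes (-0.82 ± 0.15, adjusted p = 0.00797), the mitochondrial RNA polymerase gene Polrmt (-0.68 ± 0.13, adjusted p = 0.01001) and Esrrb (-0.43 ± 0.09, adjusted p = 0.0122). The coactivator gene Ppargc1a and the factors Nrf1 and Gabpa were not called, at -0.22, -0.08 and -0.11.

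The subunits encoded in the mitochondrial genome could be followed in part. mt-Co1, the catalytic subunit of complex IV, had a fold change of -0.31 ± 0.22 after IR and -0.23 ± 0.20 in the labelled cTg libraries, and mt-Cytb, the cytochrome b of complex III, had -0.45 ± 0.20 and -0.13 ± 0.21. None passed, and in the Zeb2 table their sign was opposite to the median of the nuclear members. With the GC correction 1 of these 2 genes lay above 0 in the Zeb2 table and 1 below. For mt-Co2 and mt-Co3 at most 2 reads were counted in any library, so neither was tested.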

How the data were processed

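RNA-seq libraries of 12 mouse hearts were analysed, 3 in each of the groups WT sham, WT IR, Zeb2 WT IR and Zeb2 cTg IR, assigned from their labels. Per the study's methods, stranded single-end libraries were aligned and counted against GENCODE genes in a STAR workflow, and the submitters' processing notes name STAR 2.4.2a, HTSeq 0.6.1 and mm10. The values are raw counts of reads per gene as deposited by the authors, in 2 tables whose columns were all used. The methods name a total RNA kit and the records an mRNA kit.

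Each table was analysed separately in R 4.3.3 with edgeR 4.0.16, using TMM size factors, filterByExpr (minimum count 10, minimum total 15) and its quasi-likelihood test, with p-values adjusted by Benjamini-Hochberg across every gene that passed the filter (threshold 0.05). Single members were named if they belonged to an isoform pair, were among the 12 smallest p-values of those called, or had the smallest p-value of their complex. The other lists contributed up to 3 called genes a comparison.

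Isoform ratios used counts with a prior count of 0.5 and an exact permutation test. Positions, lengths and GC content came from GENCODE M21 (GRCm38). Near-identical copies were transcripts of other genes aligned over at least 75 bases at 97% identity or more (blastn 2.17.0). The edgeR test was tested on counts simulated from the real libraries' means, with known changes in a set of genes. For WT IR against WT sham it recovered 84.7% of genes changed by 1 and 98.0% of those changed by 2 on the log2 scale, and 6.74% of its calls fell on genes left unchanged (13835 genes). For Zeb2 cTg IR against Zeb2 WT IR these values were 63.9%, 99.0% and 1.24% (13008 genes). Within a table no pair of libraries held identical counts. The alternatives were other size factors and filters, GC and length corrections, the replicate number as a block, a joint fit of both tables, omission of each library, DESeq2 1.42.0, limma-voom (limma 3.58.1), other thresholds and prior counts and, chosen after seeing the data, adding the counts of copies. The members and lists were chosen with earlier results of these data known. Protein sequences were not used here, and 1 listed assembly gene, Pet117, was not matched.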

Additional observations from a re-analysis of the deposited data

How the results depend on the processing

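The precision is limited by 3 hearts a group, since at least 272 counts stood behind every member in every library except Cox4i2 and, in the WT table, Cox7c. The cause of each change below was not tested. After IR, the count of members called lower was 14, and it was 4 with cardiomyocyte size factors, 4 with all 12 libraries in 1 fit, 2 at an adjusted p under 0.01, and 1 to 24 when 1 library was left out. It was 18 at an adjusted p under 0.1 and 12 to 16 with the other alternatives without the block. The median of -0.32 was -0.066 with cardiomyocyte size factors and lay between -0.45 and -0.22 when 1 library was left out. In the labelled cTg libraries, the count called higher was 1, and it was 9 without a filter, 5 with the GC correction, 6 with DESeq2, 0 with limma-voom, 10 with all 12 libraries in 1 fit, 5 at an adjusted p under 0.1, 0 at one under 0.01, and 0 to 14 when 1 library was left out. The median of 0.32 was 0.12 with cardiomyocyte size factors, 0.19 with the length correction and 0.29 to 0.36 when 1 library was left out. The Cox6a2/Cox6a1 difference after IR was -0.46 with the GC correction and -0.22 to 0.040 when 1 library was left out.

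Over all genes, the counts of 1519 higher and 1340 lower after IR became 2684 and 246 with cardiomyocyte size factors and 950 and 474 with all 12 libraries in 1 fit. In the labelled cTg libraries 278 higher and 196 lower became 195 and 1057 with cardiomyocyte size factors, 433 and 374 with the GC correction, 671 and 425 with DESeq2, 1029 and 524 without a filter, and 1265 and 667 with all 12 libraries in 1 fit. Leaving out 1 library gave 226 to 2542 higher and 195 to 2437 lower after IR, and 50 to 1594 and 46 to 825 in the Zeb2 table.

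The groups share replicate numbers. Same-numbered libraries deviated together with correlations of -0.03, 0.01 and -0.01 in the WT table and 0.13, 0.26 and -0.04 in the Zeb2 table. Different-numbered libraries had correlations from -0.11 to 0.11 in the WT table and from -0.33 to 0.33 in the Zeb2 table. So few values cannot settle whether equal numbers mark a pairing. The labels state none, so the main fit had no block and the block is given as an alternative. With the replicate number as a block, 13 members were lower after IR (8.72% of all genes). In the labelled cTg libraries 8 were higher (8.94% of all genes). When the GC correction was added to the block, these counts were 8 (5.86% of all genes) and 2 (3.03%). In the labelled cTg libraries the block brought Cox4i1, Cox8b, Uqcr10, Cox8a and Cox6a2 past the threshold (adjusted p = 0.0104, 0.00897, 0.0166, 0.0352 and 0.0337 from edgeR), as well as Cyc1 and Cox7a1, and with block and GC correction Uqcr11 no longer passed (adjusted p = 0.0518). Over all genes of the Zeb2 table the block gave 1164 higher and 649 lower.

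Several single members changed sign. With cardiomyocyte size factors, after IR, these were Sdhd (0.11), Uqcrc2 (0.052), Uqcrb (0.093), Uqcrh (0.21), Cycs (0.038), Cox4i2 (0.11), Cox6b1 (0.16), Cox6c (0.033), Cox7a2 (0.20), Cox7a2l (0.26), Cox7b (0.15) and Cox8b (0.079), and in the labelled cTg libraries Sdha (-0.11), Uqcrh (-0.023), Cox5a (-0.18) and Cox7b (-0.12). With the GC correction they were Cox4i2 (0.0091) and Cox7c (-0.10) after IR, and Uqcrc2 (0.069), Uqcrb (0.057), Cyc1 (-0.11), Cox4i2 (-0.11) and Cox6a1 (-0.32) in the labelled cTg libraries. With block and GC correction together they were Cox4i2 (0.015) and Cox7c (-0.11), and Uqcrc2 (0.071), Uqcrb (0.060), Cyc1 (-0.11), Cox4i2 (-0.12), Cox6a1 (-0.32) and Cox8a (-0.0017). With the length correction they were Cox7a2l (0.029), and Uqcrh (-0.048), Cox5a (-0.12), Cox5b (-0.0049), Cox7a2 (-0.027) and Cox7b (-0.13). Cox7a2l after IR was 0.0029 with at least 10 counts in every library, Cox5a in the labelled cTg libraries -0.0019 with upper-quartile size factors, and Cox7c after IR -0.27 with copies added, an alternative chosen after seeing the data. Leaving out 1 library gave ranges across 0 after IR for Cox7c (-0.074 to 0.14), Uqcrh (-0.13 to 0.0046) and Cox7a2l (-0.039 to 0.018), and in the labelled cTg libraries for Cox5a (-0.094 to 0.18), Sdha (-0.0071 to 0.20), Uqcrc2 (-0.15 to 0.023) and Uqcrb (-0.32 to 0.0012).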
